A study of Mus musculus with 5 samples.

Results

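The β-catenin pathway genes are 10 genes of canonical Wnt signalling, and Runx3 binding around them was read from the peak list of a chromatin immunoprecipitation and sequencing (ChIP-seq) experiment in the D1 line of mouse dendritic cells, derived from spleen. They encode a Wnt receptor and its co-receptors (Fzd1, Lrp5, Lrp6), proteins of the complex that destroys β-catenin (Apc, Axin1, Axin2), β-catenin itself (Ctnnb1) and the DNA-binding factors it works through (Lef1, Tcf7, Tcf7l2). They were taken from 22208 protein-coding genes on chromosomes 1 to 19 and X. A peak was given to a gene when its summit, the highest point of the peak, lay in the regulatory domain of that gene. The domain ran from 5 kb upstream to 1 kb downstream of the outermost transcription start site (TSS), and each side was stretched by at most 1 Mb, stopping where the basal stretch of another gene began. By this rule 33 of the 13014 peaks of the list fell in the domains of 6 members, and the other 4 members had none.

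The series has 3 libraries made with a polyclonal rabbit antibody to Runx3 (Runx3 IP) and, as the control, 2 with non-immune rabbit serum (NIS IP). All 5 come from the same line, cultured and fixed in formaldehyde, and the labels name no treatment and no change of genotype. The analysis used 1 pooled list, called by the authors on 1 Runx3 alignment of 8689867 kept reads against 1 NIS alignment of 4946605. Values of single libraries were not analysed here, so no replicate error is given, and every interval below covers counting error only. A peak list holds no expression values, so the dendritic cell identity of the line could not be checked against marker genes, and how strongly the members were transcribed is not known from it.

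In the absence of a Wnt signal, a complex built on the scaffold Axin and the tumour suppressor Apc holds β-catenin for phosphorylation and degradation. When a Wnt ligand joins a Frizzled receptor to Lrp5 or Lrp6, that complex is blocked, β-catenin accumulates, enters the nucleus and turns TCF/LEF factors from repressors into activators. In dendritic cells the pathway is known for its part in tolerance, and the study raised it in connection with dendritic cells that lack Runx3. Runx3 binds DNA through its Runt domain at the core TGTGGT or TGCGGT.

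The stretches of DNA under several member peaks show how differently that core was placed. Each is the plus strand of mm9 (NCBIM37) from 100 bases before to 100 bases after the summit, with the RUNX core in capitals, read as ACCACA or ACCGCA where it lies on the minus strand. The first set holds the strongest peaks of Lef1 (chr3:130597264-130597464, 216 kb upstream), Fzd1 (chr5:4770760-4770960, 12.6 kb upstream) and Tcf7l2 (chr19:55940813-55941013, intron), shown because they were the highest summits of their genes with a core.
Lef1, strongest peak: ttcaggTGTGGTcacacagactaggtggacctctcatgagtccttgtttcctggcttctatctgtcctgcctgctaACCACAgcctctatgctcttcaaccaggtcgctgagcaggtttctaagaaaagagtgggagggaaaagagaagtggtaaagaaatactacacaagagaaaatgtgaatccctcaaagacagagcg
Fzd1, strongest peak: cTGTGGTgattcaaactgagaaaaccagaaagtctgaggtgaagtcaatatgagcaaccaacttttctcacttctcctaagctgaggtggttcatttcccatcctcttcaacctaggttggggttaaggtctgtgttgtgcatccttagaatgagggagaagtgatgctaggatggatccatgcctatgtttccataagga
Tcf7l2, strongest peak: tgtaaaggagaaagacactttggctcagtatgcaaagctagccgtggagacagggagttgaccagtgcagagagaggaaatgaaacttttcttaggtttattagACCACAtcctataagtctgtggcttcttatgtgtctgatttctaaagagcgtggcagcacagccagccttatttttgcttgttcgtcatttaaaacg
In Tcf7l2 the core lay 6.5 bp from the summit, in Lef1 the nearer of the pair lay 21.5 bp away, and in Fzd1 the only core began at the second base shown, 96.5 bp from the summit, where its last T is also the first base of an AP-1 match (TGANTCA).

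The second set shows peaks with several cores, and the 1 peak of the Ctnnb1 domain with a core within 100 bp of its summit. They lie in introns of Cdk14 within the Fzd1 domain (chr5:5320809-5321009 and chr5:5374442-5374642), in an intron of Tcf7l2 (chr19:55843425-55843625) and 346 kb upstream of Ctnnb1 (chr9:120491849-120492049).
Fzd1, 563 kb upstream: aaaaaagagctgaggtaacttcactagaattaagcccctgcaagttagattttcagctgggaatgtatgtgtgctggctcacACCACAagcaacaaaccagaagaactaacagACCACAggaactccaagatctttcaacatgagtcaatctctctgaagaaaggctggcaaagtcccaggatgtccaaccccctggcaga
Fzd1, 616 kb upstream: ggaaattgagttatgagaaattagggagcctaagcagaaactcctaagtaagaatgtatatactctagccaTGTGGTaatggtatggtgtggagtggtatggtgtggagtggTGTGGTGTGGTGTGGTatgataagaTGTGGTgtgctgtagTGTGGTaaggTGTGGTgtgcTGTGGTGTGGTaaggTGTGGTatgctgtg
Tcf7l2, 27.2 kb downstream: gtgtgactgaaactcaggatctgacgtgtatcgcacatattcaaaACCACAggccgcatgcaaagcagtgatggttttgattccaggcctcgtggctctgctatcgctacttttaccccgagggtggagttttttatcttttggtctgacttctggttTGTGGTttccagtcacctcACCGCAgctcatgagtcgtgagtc
Ctnnb1, 346 kb upstream: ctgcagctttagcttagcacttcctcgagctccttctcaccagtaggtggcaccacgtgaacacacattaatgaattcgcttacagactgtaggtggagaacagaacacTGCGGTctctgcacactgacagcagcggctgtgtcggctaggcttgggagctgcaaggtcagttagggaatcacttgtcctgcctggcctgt
The peak 616 kb from Fzd1 carried 10 matches of TGTGGT on 1 strand, some sharing a base, in a simple GT-rich repeat, and 8 peaks of the whole list, this one included, had as many or more. The Ctnnb1 window held the rarer form TGCGGT, 11.5 bp from the summit.

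The last sequence is the stronger of the Axin1 peaks (chr17:26305052-26305252, intron), shown because it has no core and its only match is to GGAAGT, the core bound by ETS factors. Here the capitals mark that ETS match, read on the minus strand as ACTTCC.
Axin1, 29.5 kb downstream: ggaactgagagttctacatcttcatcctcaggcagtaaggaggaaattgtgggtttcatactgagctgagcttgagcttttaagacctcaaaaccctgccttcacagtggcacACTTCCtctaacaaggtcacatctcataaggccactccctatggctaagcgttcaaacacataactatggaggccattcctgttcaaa

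Of the 10 members, 6 had at least 1 peak in their domain, beside 43.1% of all protein-coding genes (9573 of 22208). The members' domains were long. Only the domain of Axin1 (73.4 kb) was under the median of 90.0 kb over all genes, and the others spanned 123 to 1226 kb. When all genes were split by domain length into 10 classes of equal size, the share with a peak ran from 26.7% to 58.9% between classes and averaged 52.7% over the classes of the 10 members, and the count of 6 is close to that. Together the member domains covered 5.0 Mb and held 6.59 peaks per Mb (95% exact Poisson interval, 4.54 to 9.26), and the autosomes as a whole held 5.22. Density differed between chromosomes, and this comparison was not matched for it. Chromosome 5, which holds Fzd1, had 1201 peaks in 152537259 bp, and chromosome 3, which holds Lef1, had 600 in 159599783 bp. A summit in a promoter of the gene itself, from 1 kb upstream to 100 bp downstream of any of its coding TSSs, was found for 3 members (Apc, Axin1 and Ctnnb1), beside 13.4% of all genes. A best fold of 10 or more, where fold is the deposited ratio of Runx3 pileup to local background with 1 added to each, was found for 4 members (Lef1, Apc, Fzd1 and Tcf7l2), beside 19.7% of all genes. This share was not matched for domain length. With domains extended up to 100 kb the best folds of Lef1 and Tcf7l2 were 8.29 and 9.61, and by nearest TSS that of Lef1 was 9.37. Of all genes 4.99% had 5 or more peaks, and 4 members reached that number (Fzd1, Tcf7l2, Apc and Lef1). Averaged over the length classes of the members that share was 10.6%. By nearest TSS alone 2 members reached it, Tcf7l2 with 6 peaks and Apc with 5, beside 1.81% of all genes.

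**Figure D1:**
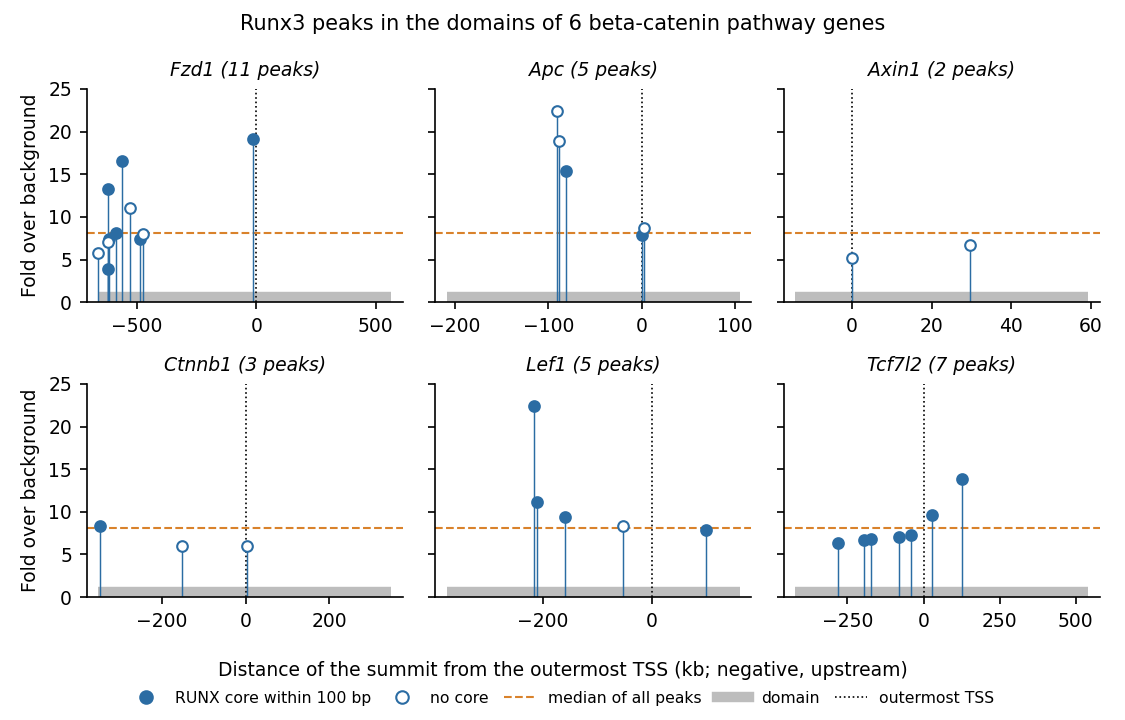
Fold of each Runx3 peak over local background against the distance of its summit from the gene's outermost TSS in kb, for the 6 members with a peak; filled points have a RUNX core within 100 bp of the summit, the grey bar is the domain and the dashed line the median fold of all peaks (8.12). The strongest peaks of Lef1 (22.4) and Apc (22.4) lie far upstream, and 10 of the 11 peaks of Fzd1 lie at the far end of its domain.

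The receptor gene Fzd1, which encodes a Frizzled receptor, had the most peaks of the members, 11 in a domain of 1226 kb. The peak nearest to its TSS was also its strongest: chr5:4770698-4770968, 12.6 kb upstream in intergenic DNA. Its fold was 19.1, from 43 Runx3 fragments at the summit (95% exact Poisson interval, 31.1 to 57.9) over a NIS background of 0.333. Backgrounds here and below are in units of the deposited pileup, in which 1 fragment is worth 0.569. This peak ranked above 97.4% of all peaks by fold. The other 10 lay 474 to 661 kb upstream, all of them inside Cdk14 and all nearer to a TSS of Cdk14, the gene for a kinase that is known to act with cyclin Y on Lrp6, than to that of Fzd1. The rule gives them to Fzd1 and to Cdk14 alike, and which gene they act on was not tested. Counted by nearest TSS alone, Fzd1 kept 1 peak.

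Within Cdk14 the folds ran from 3.94 to 16.5, and 6 of the 10 peaks had a RUNX core. The highest, 563 kb upstream, had 41 fragments (29.4 to 55.6), a pair of TGTGGT cores and an AP-1 match. Next came a Cdk14 promoter peak with a fold of 13.3 from 31 fragments (21.1 to 44.0) and a pair of TGCGGT cores, and an intronic peak with a fold of 11.1 from 27 fragments and no core. The lowest of all member peaks, with a fold of 3.94, was also in a Cdk14 promoter: it had 19 fragments, the median of the whole list, over the highest NIS background of any member peak, 2.00, in DNA of 75.1% G and C. These 11 peaks held no ETS match.

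The edge of the domain mattered for Fzd1. The last peak inside it, with a fold of 5.77 from 12 fragments, lay 21 bp from the edge. The first peak beyond it, 1.06 kb past the edge in another promoter of Cdk14, had a fold of 27.6 from 64 fragments, above every peak inside any member domain.

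The co-receptors Lrp5 and Lrp6, single-pass receptors that bind Wnt together with a Frizzled, had no peak in domains of 123 kb and 234 kb. The nearest peak to Lrp5 lay 21.7 kb upstream of its TSS, 4.91 kb past the edge, in the promoter of 1810055G02Rik, with a fold of 8.36 from 18 fragments. For Lrp6 it lay 201 kb downstream and 31.1 kb past the edge, with a fold of 5.96 from 12 fragments. The list holds only regions that passed the peak caller's threshold, a q value of 0.05, so weaker binding at these genes was not measured. For genes with domains of similar length the share with a peak was 53.2% for Lrp5 and 54.3% for Lrp6.

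Apc, whose protein is the tumour suppressor that helps to hold β-catenin for degradation, had 5 peaks in 314 kb, or 15.9 per Mb (5.18 to 37.2). The strongest, chr18:34290246-34290459, lay 90.2 kb upstream with a fold of 22.4 from 52 fragments (38.8 to 68.2). A second followed 88.2 kb upstream with a fold of 18.9 from 44 fragments (32.0 to 59.1). The third, 80.8 kb upstream, had a fold of 15.4 from 35 fragments (24.4 to 48.7). These 3 intergenic summits spanned 9.42 kb, and Apc was the gene nearest to each of them, although they also lay in the domain of Epb4.1l4a. The 2 strongest had an ETS match and no RUNX core within 100 bp of the summit, nor within 250 bp, and the one 80.8 kb upstream had a core 62.5 bp from its summit.

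The other Apc peaks were near the gene's start and lower. One stood in the promoter, 115 bp upstream of the TSS (chr18:34380423-34380653), with a fold of 7.87 from 17 fragments (9.90 to 27.2) and a TGCGGT core 1.5 bp from the summit. The other stood 1.98 kb into the gene, in an intron, with a fold of 8.71 from 19 fragments (11.4 to 29.7), ETS matches and no core. Both were near the list medians of 8.12 for fold and 19.0 for fragments. Their intervals overlapped that of the lowest upstream peak (24.4 to 48.7) and lay below those of the stronger upstream peaks (32.0 to 59.1 and 38.8 to 68.2).

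Axin1, the scaffold of the destruction complex, had 2 peaks in the shortest domain of the members, 73.4 kb, and both lay in the gene. The promoter peak, chr17:26275581-26275761, had its summit 29 bp downstream of the outermost TSS, with a fold of 5.20 from 15 fragments (8.40 to 24.7) over a NIS background of 0.833. The intronic peak, chr17:26305040-26305193, had a fold of 6.76 from 22 fragments (13.8 to 33.3) over a background of 1.00. Neither had a RUNX core within 100 bp of the summit and both had an ETS match. The promoter peak had a core 217.5 bp from its summit, and the intronic peak had none within 250 bp. The NIS background at both was above the list median of 0.345, and its part in their low folds was not tested.

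Axin2, a second Axin and a common readout of β-catenin signalling because TCF/LEF factors drive it, had no peak in a domain of 717 kb. The nearest lay 340 kb downstream in an intron of Rgs9, 117 kb past the edge, with a fold of 5.34 from 17 fragments. The absence of a peak allows up to 5.14 per Mb in this domain by the 95% exact Poisson interval, which is close to the 5.22 of the autosomes. Chromosome 11, which holds Axin2, was denser than the autosomes as a whole, with 929 peaks in 121843856 bp.

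Ctnnb1, the gene for β-catenin, had 3 peaks in 698 kb, or 4.30 per Mb (0.887 to 12.6), and none of them was strong. The peak at the gene, chr9:120842463-120842612, had its summit 4.18 kb downstream of the outermost TSS and 6 bp upstream of another Ctnnb1 start site. Its fold was 5.96 from 12 fragments (6.20 to 21.0), in DNA of 75.6% G and C, with no match within 100 bp to any of the 4 motifs searched. Its nearest RUNX core was 246.5 bp from the summit. A peak 152 kb upstream had the same fold and fragments and an AP-1 match. Its nearest core was centred 100.5 bp from the summit, not wholly inside the window of 100 bp. The best was 346 kb upstream, with a fold of 8.29 from 18 fragments (10.7 to 28.4), a RUNX core and an ETS match. It lay 5486 bp from the TSS of 5830454E08Rik, the gene nearest to it.

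Lef1, an HMG-box factor that recruits β-catenin to its targets, had 5 peaks in 536 kb. The strongest, chr3:130597219-130597576, lay 216 kb upstream in intergenic DNA, with a fold of 22.4 from 50 fragments (37.1 to 65.9). A peak 6.0 kb from it had a fold of 11.1 from 27 fragments (17.8 to 39.3) and was the widest of the member peaks at 486 bp. Both were nearer to the TSS of Rpl34, a ribosomal protein gene, than to that of Lef1, though at 164048 bp and 170050 bp neither was near any TSS. Closer to the gene the peaks were lower: a fold of 9.37 from 20 fragments 159 kb upstream, and 8.29 from 18 fragments 53.0 kb upstream. Inside Lef1 there was 1 peak, chr3:130911570-130911700, in an intron 98.2 kb from the start, with a fold of 7.87 from 17 fragments (9.90 to 27.2). Of the 5, 4 had a RUNX core, the exception being the peak 53.0 kb upstream, and the gene's promoters held none.

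Tcf7l2, another HMG-box factor of the family, had 7 peaks in 961 kb, and each of the 7 had a RUNX core within 52.5 bp of its summit. Those upstream were weak, with folds of 6.39, 6.68 and 6.79 at 280, 197 and 172 kb, all in introns of the neighbouring SNARE gene Vti1a, and 7.05 and 7.25 at 81.5 and 41.0 kb in intergenic DNA. Their fragments ran from 13 to 23, within counting error of the list median of 19.0. The highest were in introns of Tcf7l2 itself. The strongest, chr19:55940810-55941022, had a fold of 13.8 from 34 fragments (23.5 to 47.5), 125 kb from the outermost TSS and 28.1 kb from the nearest Tcf7l2 start site. The other, chr19:55843419-55843647, had a fold of 9.61 from 32 fragments (21.9 to 45.2) over a NIS background of 1.00, with 3 cores.

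Tcf7, the family member best known from T cells, had no peak in 123 kb. The nearest was 0.874 kb past the edge of its domain and 51.1 kb from its TSS, in the promoter of Skp1a, a gene for a ubiquitin ligase subunit, with a fold of 5.62 from 18 fragments. Among genes with domains of similar length to that of Tcf7, 53.2% had a peak. No member of the TCF/LEF group had a peak in a promoter.

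**Figure D2:**
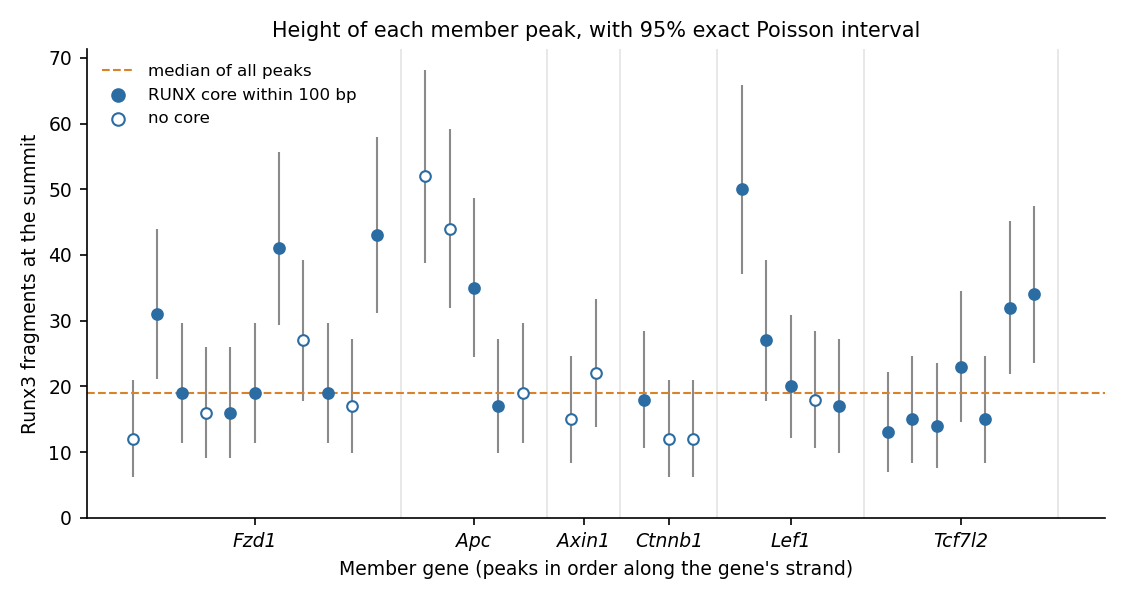
Runx3 fragments at the summit of each of the 33 member peaks, in order along each gene's strand, with 95% exact Poisson intervals; filled points have a RUNX core within 100 bp, and the dashed line is the median of all peaks (19.0). The points range from 12 to 52, and the intervals of most include the list median.

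Ordered by the fragments at the strongest peak, the members ran Apc (52), Lef1 (50), Fzd1 (43), Tcf7l2 (34), Axin1 (22) and Ctnnb1 (18). No step of this order was larger than its counting error. By a two-sided exact binomial test between neighbours, the largest ratio was 1.55 (0.878 to 2.77) between Tcf7l2 and Axin1, with an exact p of 0.141 and 0.704 after Benjamini-Hochberg adjustment over 5 pairs. For the other 4 pairs the ratio was 1.04 to 1.26 and the adjusted exact p 0.795 or above. Between the ends of the order the intervals did not overlap: 38.8 to 68.2 for Apc and 10.7 to 28.4 for Ctnnb1. The strongest peak was picked from 2 peaks for Axin1 and from up to 11 for Fzd1, so the order also reflects how many peaks a gene had. The place of Lef1 rests on a peak nearer to Rpl34: its best peak had 20 fragments by nearest TSS and 18 within 100 kb, below the 22 of Axin1. For Ctnnb1 the best then had 12. By fold the neighbours at each end changed places, with Lef1 just above Apc at 22.4 each and Ctnnb1 (8.29) above Axin1 (6.76).

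As a group the member peaks were of ordinary strength. Their median fold was 7.94, with a range of 3.94 to 22.4, against 8.12 for all peaks, and the median of fragments was 19.0 in both. Of the 33, 15 were above the median fold of the list, and 10 had a fold of 10 or more, as 28.7% of all peaks had. The median width was 202 bp against 172 bp, the median NIS background 0.369 against 0.345, and the median −log10 q 7.77 against 8.05. G and C made up 49.3% of the window at the median member peak and 50.2% at the median of the list.

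Their position relative to genes was less ordinary. Summits within 10 kb of any protein-coding TSS made up 30.3% of the member peaks (10 of 33, 95% Wilson interval 17.4 to 47.3), against 50.5% of all peaks. Summits over 100 kb from every TSS made up 21.2% (10.7 to 37.8), against 8.18%. These intervals leave out the list's values, but peaks in 1 domain are not independent, the rule itself reaches farther in long domains, and the difference was not tested. Promoters held 5 member peaks, 15.2% (6.65 to 30.9), against 22.9% of all peaks. At a −log10 q of 5 or more the share was 7.14% of 28 member peaks, against 21.2%. The 5 were in the starts of Apc, Axin1, Ctnnb1 and, for 2 of them, Cdk14. Introns held 16 (48.5%, 32.5 to 64.8), against 37.6% of all peaks, and intergenic DNA 12 (36.4%, 22.2 to 53.4), against 35.6%. No summit was in an exon, which allows a share of up to 10.4%, against 3.92% for the list. Of the 33, 7 lay within the body of the member itself, and 25 were over 50 kb from its TSS. A member was the gene with the nearest TSS for 18 of the 33. Like values over the whole list were not computed for body, distance over 50 kb and nearest member. In all, 31 of the 33 lay in the domain of a second gene too, a larger share than the 72.4% of all peaks.

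A RUNX core, TGTGGT or TGCGGT on either strand, lay within 100 bp of the summit in 21 of the 33 member peaks. That is 63.6% (95% Wilson interval 46.6 to 77.8), against 64.2% of all peaks. In windows of the same length centred 1 kb upstream and downstream the member shares were 21.2% and 24.2%, and those of all peaks 17.6% and 16.9%, so the core was found more often at member summits than beside them, as in the list at large. Where a core was present, the nearest lay at a median of 21.5 bp from the summit, against 14.5 bp for all peaks. Of the 35 matches 28 were TGTGGT, and without the GT-rich repeat 18 of 25 were, while in the whole list 81.4% were. Member peaks of fold 10 or more had a core in 7 of 10 cases, against 76.1% in the list, and weaker ones in 14 of 23, against 59.3%.

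The cores were not spread evenly over the roles. Of the 12 peaks of Lef1 and Tcf7l2, 11 had a core. Of the 10 peaks of Apc, Axin1 and Ctnnb1, 3 did, and of the 11 of Fzd1, 7. With the window widened to 250 bp the counts were 12 of 12, 6 of 10 and 9 of 11, so the split was smaller. It was made after the values were seen, and is given as a description with no test. Promoter peaks had a core less often in the list as a whole (47.1%, against 69.2% elsewhere), and 3 of the 10 peaks of Apc, Axin1 and Ctnnb1 were in promoters, against none of the 12. Among the member peaks themselves, a core was found in 3 of the 5 in promoters and in 18 of the 28 outside them. How far position accounts for the split was not tested.

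**Figure D3:**
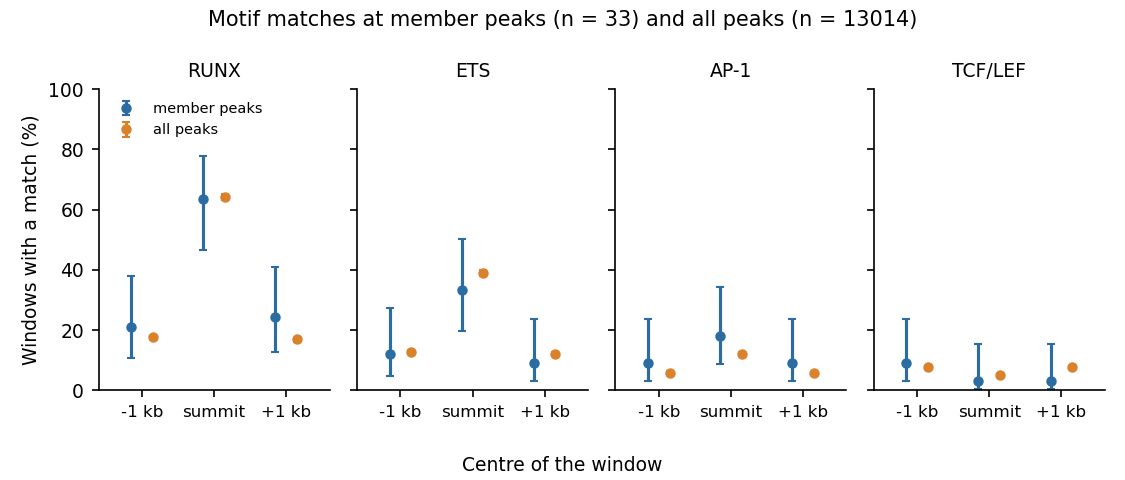
Share of windows of 100 bp to either side of their centre with a match to each motif, at the summit and centred 1 kb to either side, for the 33 member peaks and all 13014 peaks, with 95% Wilson intervals. RUNX matches reach 63.6% at member summits and 64.2% at all summits, ETS 33.3% and 39.0%, AP-1 18.2% and 12.2%, and TCF/LEF 3.03% and 5.20%.

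The other motifs were also close to the list. GGAAGT, bound by ETS factors such as PU.1, which dendritic cells need, was within 100 bp of 11 member summits, 33.3% (19.8 to 50.4), against 39.0% of all peaks. It was found at 6 of the 10 peaks of Apc, Axin1 and Ctnnb1, at 5 of the 12 of Lef1 and Tcf7l2, and at none of the 11 of Fzd1. A RUNX core and an ETS match occurred together at 5 member peaks, against 23.9% of all peaks, and 6 had neither, against 20.7%. TGANTCA, bound by AP-1, was at 6 member summits, 18.2% (8.61 to 34.4), against 12.2%, 3 of them in the Fzd1 domain. CTTTGAT or CTTTGAA, the site of the TCF/LEF factors themselves, was at 1 member summit, 3.03% (0.537 to 15.3), against 5.20% of all peaks and 7.73% and 7.74% of the windows to either side in the list. That 1 was the Apc peak 88.2 kb upstream. All motifs were searched on both strands, and a match is a run of letters, not a measured site.

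To set the 10 genes in their pathway, 98 genes of Wnt/β-catenin signalling, the members included, were listed by role. A peak was in the domain of 49 of them (95% Wilson interval 40.3 to 59.7%), or of 43 of the 88 without the members (48.9%, 38.7 to 59.1), against 43.1% of all genes. The median best fold of those with a peak was 10.3, against 9.55 over all genes with a peak. By role the share was below 43.1% for ligands, 6 of 19, and for R-spondins with their receptors and ligases, 3 of 9. It was also below for receptors and co-receptors, 5 of 14 (35.7%, 16.3 to 61.2), and neither gene of ligand secretion (Porcn, Wls) had a peak. The share was higher for nuclear factors, 10 of 15 (66.7%, 41.7 to 84.8), extracellular inhibitors, 9 of 14 (64.3%, 38.8 to 83.7), and cytoplasmic transducers, 11 of 19 (57.9%, 36.3 to 76.9). The interval of each of these included 43.1%. For the other target genes, 5 of 6 had a peak (83.3%, 43.6 to 97.0), an interval just above 43.1%. Domain length differs between roles. Over the length classes of the genes listed, the share of all genes with a peak averaged 48.7% for the 98 genes, 56.2% for the other target genes and 45.0% to 53.3% for the other roles, and each of the 8 intervals included the value for its own role.

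**Figure D4:**
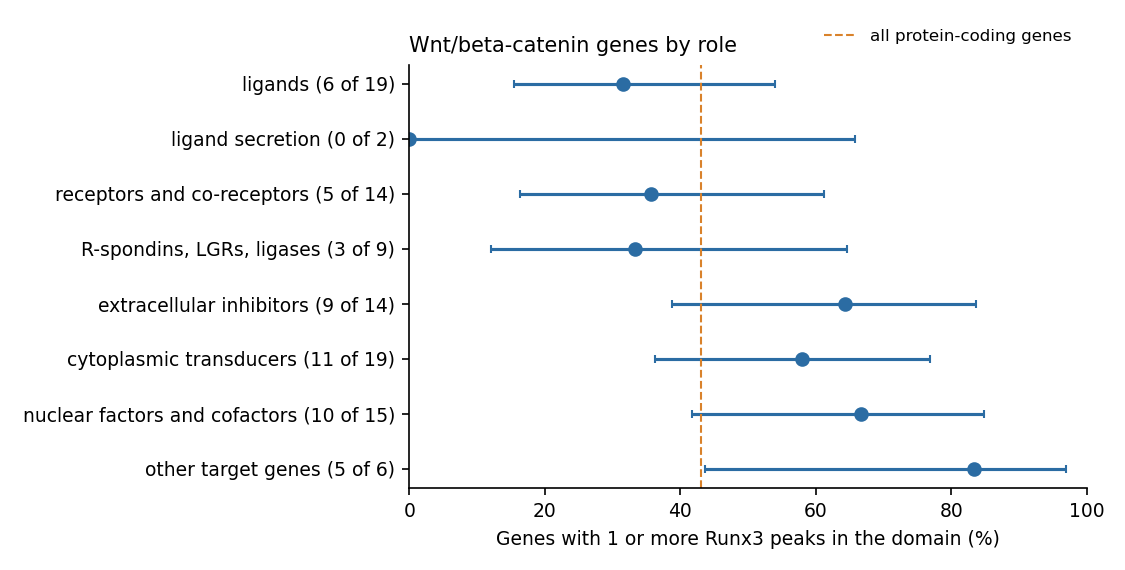
Share of genes with at least 1 Runx3 peak in the domain for each of 8 roles in Wnt/β-catenin signalling, with 95% Wilson intervals and the count of genes in brackets; the dashed line is the share over all protein-coding genes (43.1%). The points run from 0 of 2 for ligand secretion to 5 of 6 for other target genes, whose interval (43.6 to 97.0) alone lies above the line but includes the 56.2% of all genes with domains of like length.

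Among ligands the highest folds belonged to Wnt5a (17.6, 615 kb upstream in another gene's intron), Wnt11 (15.3, 30.0 kb upstream) and Wnt2b (9.85), and Wnt1, Wnt3, Wnt3a, Wnt4, Wnt5b, Wnt6, Wnt7a, Wnt8a, Wnt8b, Wnt9a, Wnt9b, Wnt10b and Wnt16 had no peak. After Fzd1, the receptors Ryk (10.4) and Fzd7 (10.3, 6.38 kb upstream) led their role, and Fzd2, Fzd4, Fzd6, Fzd8, Fzd9, Fzd10 and Ror2 had none. Rspo2, which encodes a secreted protein that strengthens Wnt signals, had the highest fold of all 98 genes, 27.2 from 62 fragments, 7.65 kb upstream of its TSS. Znrf3 (10.3, 64.5 kb upstream and nearest to Xbp1), a ligase that removes Frizzled from the surface, and Lgr6 (5.91) followed. Rspo1, Rspo3, Rspo4, Lgr4, Lgr5 and Rnf43 had no peak. Of the inhibitors that hold back Wnt outside the cell, Frzb (23.7), Dkk2 (15.0) and Sfrp5 (12.7) were highest. The best peaks of Frzb (132 kb upstream), Dkk2 (442 kb upstream) and Sfrp5 (31.7 kb downstream) were each nearest to the TSS of another gene. Dkk4, Sfrp1, Sfrp4, Wif1 and Kremen1 had no peak.

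Inside the cell, Fbxw11 (17.3), a substrate adaptor of the ligase that marks β-catenin, and Tnks (15.5), a tankyrase that marks Axin for degradation, came after Apc. The best peak of Fbxw11 lay 88.5 kb upstream, nearest to Stk10. The kinase genes Gsk3a and Gsk3b, whose products phosphorylate β-catenin, had no peak, nor had Csnk1d, Csnk1e, Apc2, Amer1 or Ctnnbip1. Peaks at the start site itself were found for the Dishevelled genes Dvl1 (6.82) and Dvl3 (8.55). Among nuclear factors Tle3 (18.8), a Groucho-type co-repressor of TCF/LEF factors, stood between Lef1 and Tcf7l2, and Tcf7l1 had 13.7. The best peak of Tle3 lay 330 kb downstream, nearest to Rplp1, and that of Tcf7l1 129 kb downstream, nearest to Gm15401. Bcl9l, Pygo1, Tle2 and Tle5 had no peak. Of the other targets, Ccnd1 had 11 peaks with a best fold of 15.0, Sp5 a best fold of 12.0, Cd44 of 11.1 and Myc of 10.4 from 9 peaks, and only Nkd1 had none. The best peaks of Sp5 (384 kb upstream) and Cd44 (107 kb upstream) were nearest to other genes. Those of Ccnd1 and Myc lay 159 kb upstream and 745 kb downstream.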

How the data were processed

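D1 cells were assayed by ChIP-seq with anti-Runx3 (3 libraries) or NIS (2 libraries). The authors processed reads with CASAVA 1.8 and Bowtie 1, and called peaks on mm9 with MACS2 2.0.10 (fragment length 119 bp, q cutoff 0.05, 1 read kept per position). The titles name 3 Runx3 libraries and the protocol 2 replicate experiments, and which libraries were pooled for the list is not given in the sources used here. The list deposited by the authors gives for each peak a pileup signal, a fold ratio to local background, and −log10 p and q values. Depth was 8689867 kept reads of 12078978 for Runx3 and 4946605 of 7110481 for NIS.

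The deposited pileup was scaled to the smaller library, so 1 Runx3 fragment is worth 0.569, and all 13014 values came out whole within 0.02 of a fragment. The background is that implied by the pileup and the fold, so it is in units of the scaled pileup and is not a count of NIS reads. Genes were the 22208 protein-coding genes of GENCODE vM1 on chromosomes 1 to 19 and X. Summits were assigned by the GREAT rule and placed in the order promoter, exon, intron, intergenic. Sequences and motifs were read from NCBIM37, the build of the list. Intervals are 95% Wilson for shares and 95% exact Poisson for fragments and densities. They cover counting error only, since 1 pooled list was analysed, and they take the kept reads as independent molecules. Neighbours in the order of strongest peaks were compared by an exact binomial test, and no other test was run. The alternatives were stricter peak thresholds, other domain rules, motif windows and promoter widths. All 10 members are named, and of the wider list the 3 genes of highest fold in each role and genes without a peak. A few others, such as Tcf7l1, Myc and the Dishevelled genes, were named after their values were seen. Of the 98 listed genes 2 were matched by an older symbol. The members and lists were chosen with earlier results of these data known. The procedures were tested on simulated data. Tables were computed in Python 3.11.15 with pandas 2.3.3, intervals and tests with SciPy 1.17.1 and NumPy 2.4.6, and figures drawn with matplotlib 3.10.9.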

Additional observations from a re-analysis of the deposited data

How the results depend on the processing

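Of 88 values recomputed under the alternatives, 67 stayed within a tolerance, which was 1.5 times the reported value for counts and its 95% interval for shares, medians and folds, and 21 moved past it. These intervals are wide, so some values within them changed much: the promoter share was 7.14% at a −log10 q of 5 or more (21.2% of all peaks), and the best fold of Ctnnb1 was 5.96 within 100 kb or by nearest TSS. The count of 6 members with a peak held under most alternatives, fell to 5 when only peaks with a RUNX core were kept (34.3% of all genes), to 4 at a fold of 10 or more (19.7%), and to 2 with the basal domain alone (17.4%). Keeping only peaks of fold 10 or more left 10 member peaks, with a median fold of 16.0 against 12.5 in the list so filtered. That setting left 27 of the wider genes and 4371 of all genes. The basal domain alone left 2 member peaks, both in promoters (100%) with a median fold of 6.54, 14 of the wider genes and 3874 of all genes. Member peaks numbered 21 with a core required, 14 with domains extended up to 100 kb and 18 by nearest TSS. Without the 1 added to pileup and background the median fold was 27.1 for member peaks and 27.1 for all peaks. A core lay within 50 bp of the summit in 45.5% of member peaks (56.8% of all) and within 250 bp in 81.8% (72.9% of all). Of the best folds, 24 of 29 values held. Apc moved to 15.4 with a core required and to 7.87 in the basal domain, Lef1 to 8.29 within 100 kb and 9.37 by nearest TSS, and Tcf7l2 to 9.61 within 100 kb. No paired analysis was possible because the libraries share replicate numbers but only 1 pooled list was analysed here. For the same reason no library could be left out, so the spread between Runx3 libraries was not measured.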
